A study of Arabidopsis thaliana with 16 samples.

Results

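The morning genes of the Arabidopsis clock described here are 9 genes chosen by their gene IDs, out of 33602 in the deposited table of read counts. They are CCA1 (AT2G46830), LHY (AT1G01060), RVE1 (AT5G17300), RVE2 (AT5G37260), RVE4 (AT5G02840), RVE6 (AT5G52660), RVE8 (AT3G09600), LNK1 (AT5G64170) and LNK2 (AT3G54500). RNA was sequenced from Col-0 seedlings on 1/2 MS medium, 6 days old and kept in continuous white light. Besides WT there were plants mutated in MRG1 and MRG2 (mrg1 mrg2), in PIF4 (pif4), and in all 3 genes (mrg1 mrg2 pif4, called the triple mutant). Each genotype stayed at 22 °C or spent 3 h at 28 °C, which gave 8 groups of 2 libraries. The labels do not name the alleles, the number of seedlings per library or the clock time of harvest, and nothing in them tells whether replicate libraries were grown separately. All p-values therefore measure the spread between libraries, which may be technical. Nor do they say whether seedlings at 22 °C and 28 °C were harvested at the same clock time. The values compare libraries as labelled, and a change in transcript level, a change in the phase of the clock and a difference in harvest time cannot be told apart.

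CCA1 and LHY are closely related MYB-like transcription factors that peak around dawn and repress genes expressed later in the day, among them the pseudo-response regulator (PRR) genes and TOC1. The PRR proteins in turn repress CCA1 and LHY. RVE8, RVE4 and RVE6 belong to the same MYB-like family but activate evening genes, and LNK1 and LNK2 act as their partners, since they bind RVE proteins and are needed for that activation. RVE1 connects the clock to auxin production, and RVE2 is a further morning family member. PIF4 is a basic helix-loop-helix factor that drives growth in warmth and binds the G-box, CACGTG. MRG1 and MRG2 are chromatin proteins that bind histone H3 methylated at lysine 36.

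The promoters of the 4 members with a G-box in the 300 bases before the annotated gene start are shown because CCA1, LHY, RVE1 and RVE2 all had lower levels at 28 °C. RVE8 was lower at 28 °C too and has no G-box in this window. The sequences are from RefSeq, build TAIR10.1, and end at the base before the gene. CCA1 lies on the plus strand and its window is chr2:19245291-19245590. The others lie on the minus strand, with windows chr1:37872-38171 for LHY, chr5:5692993-5693292 for RVE1 and chr5:14753089-14753388 for RVE2. They read 5′ to 3′ on the gene's strand. Capitals mark the G-box and, in RVE2, a CCA1 binding site before it and a PBE-box (CACATG) after it.
CCA1: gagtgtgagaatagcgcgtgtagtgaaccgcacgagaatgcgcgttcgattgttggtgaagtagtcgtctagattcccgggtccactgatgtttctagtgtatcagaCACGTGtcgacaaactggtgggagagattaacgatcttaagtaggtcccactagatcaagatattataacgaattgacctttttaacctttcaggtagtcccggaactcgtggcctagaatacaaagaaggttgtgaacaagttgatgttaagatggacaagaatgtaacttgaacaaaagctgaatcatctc
LHY: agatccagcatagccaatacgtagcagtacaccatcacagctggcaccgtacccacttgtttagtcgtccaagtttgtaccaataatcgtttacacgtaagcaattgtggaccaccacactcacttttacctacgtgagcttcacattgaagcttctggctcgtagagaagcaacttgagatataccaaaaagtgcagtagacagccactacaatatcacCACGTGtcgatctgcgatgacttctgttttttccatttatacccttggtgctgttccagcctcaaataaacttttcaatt
RVE1: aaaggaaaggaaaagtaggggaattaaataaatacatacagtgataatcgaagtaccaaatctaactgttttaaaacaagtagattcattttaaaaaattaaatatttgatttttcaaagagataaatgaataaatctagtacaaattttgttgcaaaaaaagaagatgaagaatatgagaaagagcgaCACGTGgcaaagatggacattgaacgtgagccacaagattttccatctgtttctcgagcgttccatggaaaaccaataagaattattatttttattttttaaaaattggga
RVE2: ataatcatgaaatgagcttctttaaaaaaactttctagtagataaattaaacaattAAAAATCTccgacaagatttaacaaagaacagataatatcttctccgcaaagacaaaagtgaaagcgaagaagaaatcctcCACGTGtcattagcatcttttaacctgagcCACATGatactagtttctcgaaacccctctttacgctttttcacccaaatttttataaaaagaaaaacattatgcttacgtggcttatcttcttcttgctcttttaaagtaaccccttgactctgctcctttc

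The G-box is its own reverse complement and was found in 4 of the 9 windows, against 7.09% of 27443 promoters of the same length. Its first base lies 193 bases before the start of CCA1, 80 before LHY, 111 before RVE1 and 163 before RVE2. In 1000 bases it was found in 5 of 9 members, RVE8 being the fifth, against 14.8% of promoters. The evening element AAAATATCT, the motif through which CCA1, LHY and RVE8 act on evening genes, was in 0 of 9 windows on either strand, against 2.79% of promoters. The CCA1 binding site, AAAAATCT or AACAATCT, was in 2 (RVE2 and RVE6, 9.99% of promoters). The PBE-box CACATG was in RVE2 and LNK2 (13.1%), and the LUX binding site, GATACG or GATTCG, in RVE4 and LNK2 (14.3%). In 1000 bases the evening element was in 0 of 9 members (7.24% of promoters) and the CCA1 binding site in 3 (27.8%). The PBE-box was then in 2 (37.7%) and the LUX binding site in 5 (39.8%). Both strands were searched, and no match in these windows overlapped another. A match describes letters and does not show binding.

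**Figure D1:**
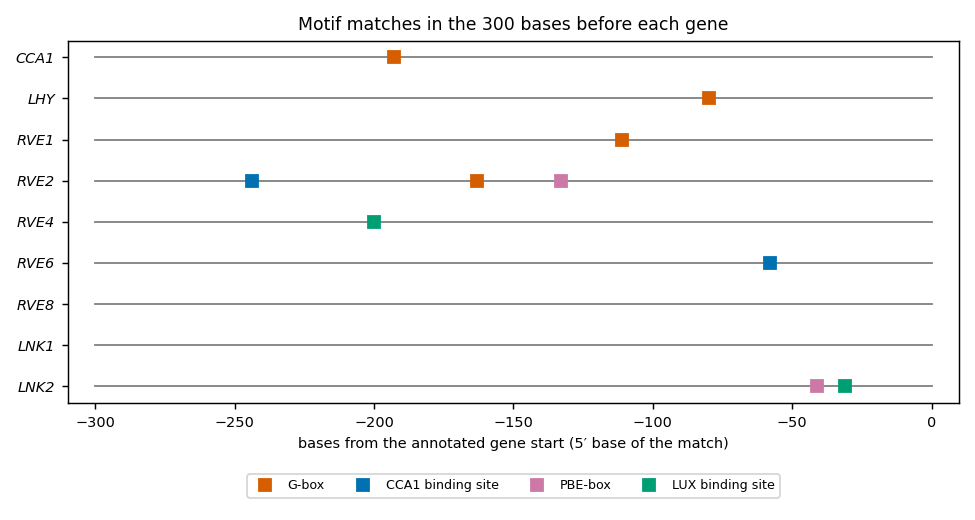
Motif matches in the 300 bases before each of the 9 genes. The horizontal axis gives bases from the annotated gene start and each square is 1 match, coloured by motif. The G-box stands in CCA1, LHY, RVE1 and RVE2, and RVE8 and LNK1 have no match.

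Library totals ran from 7186066 to 11363353 counts, and a member's count in a library from 73 (RVE6) to 2637 (LNK2). All 9 members passed the filter on low counts. Levels are given as CPM, read counts per library scaled to a common size by edgeR's TMM factors. The MRG1 transcript averaged 20.5 CPM in WT at 22 °C and 5.59 in mrg1 mrg2, and MRG2 had 11.6 and 8.65 CPM in the WT libraries and 0.415 and 0.885 in those of mrg1 mrg2. PIF4 averaged 31.7 CPM in WT at 22 °C and 27.9 in pif4, so its transcript level does not check that label. Markers of other tissues differed between groups. The summed level of 10 root markers was 177 and 179 CPM in WT at 22 °C and 77.7 to 131 in the other 14 libraries. That of 5 seed storage markers was 70.7 and 72.4 CPM in pif4 at 28 °C and at most 7.64 elsewhere. No root marker was at 0 in any library, whereas the seed marker CRU2 had 0 to 2 reads in each library. In whole seedlings, fewer cells of a type and less RNA per cell cannot be told apart.

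**Figure D2:**
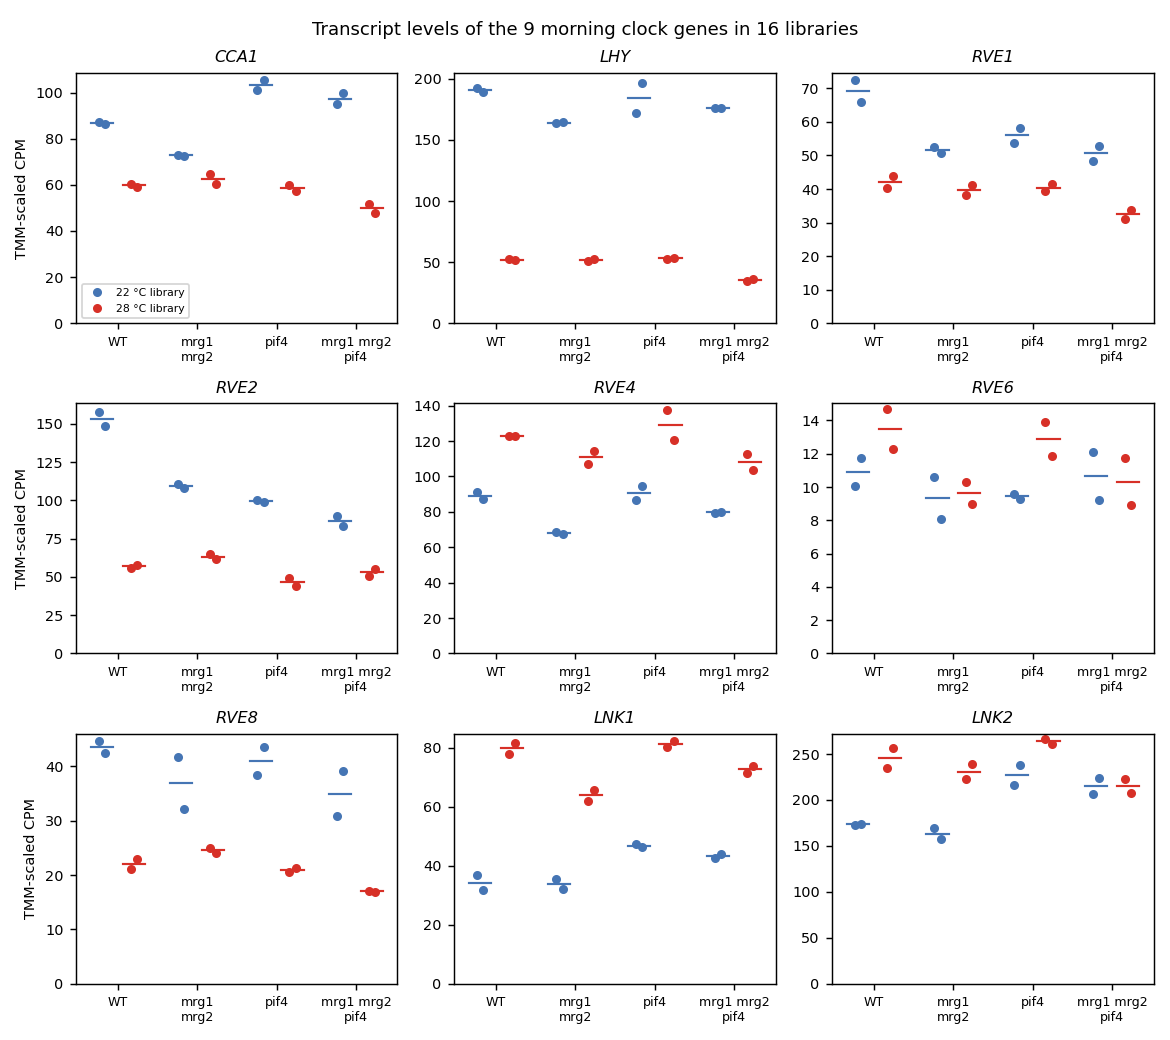
TMM-scaled CPM of the 9 genes in all 16 libraries, by genotype, with 22 °C and 28 °C in separate colours. Points are libraries and bars are group means. LHY falls from 164 to 197 CPM at 22 °C to 34.5 to 53.8 CPM at 28 °C, and LNK1 rises from 31.7 to 47.2 CPM to 62.0 to 82.2 CPM.

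Most of the morning genes differed between 22 °C and 28 °C in each genotype, in 2 opposite directions. CCA1, LHY, RVE1, RVE2 and RVE8 fell in all 4 genotypes, and RVE4 and LNK1 rose in all 4. For these 7 genes the 8 libraries at 28 °C did not overlap the 8 at 22 °C. How many of all genes tested were separated in this way was not counted, so the separation is not shown to be particular to them. LNK2 rose in WT, mrg1 mrg2 and pif4. RVE6 passed the test in none. The test was edgeR's quasi-likelihood test with Benjamini-Hochberg adjustment over 20075 genes and a threshold of 0.05. It was passed by 8 of 9 members in WT, where 26.9% of all genes tested passed. The corresponding counts were 8 in mrg1 mrg2 (26.9%), 8 in pif4 (25.6%) and 7 in mrg1 mrg2 pif4 (27.2%). The median size of the log2 change over the 9 members was 0.72 in WT, beside 0.25 over all genes tested.

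**Figure D3:**
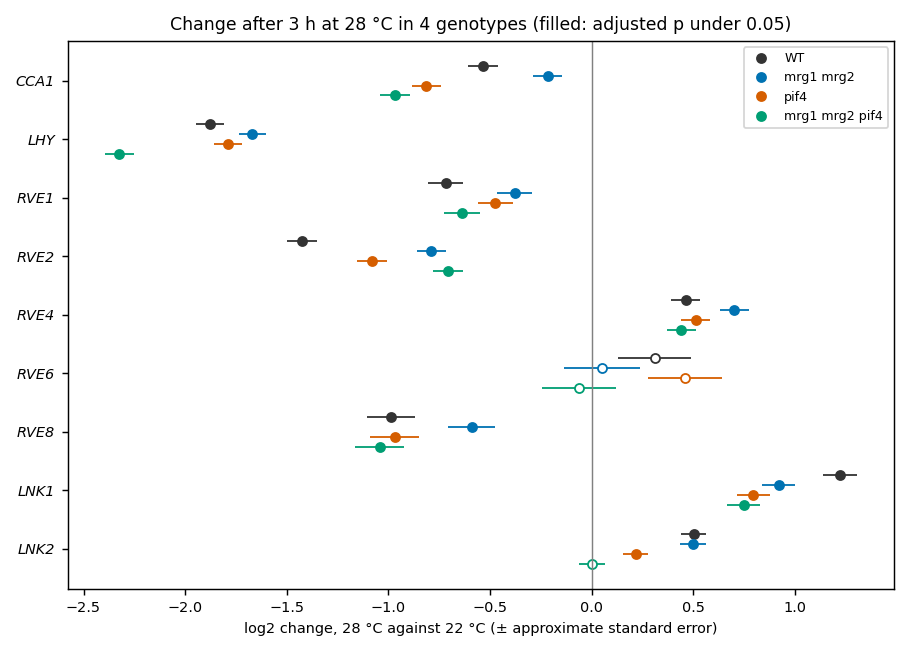
Log2 change after 3 h at 28 °C for each gene in 4 genotypes. Points are edgeR estimates with an approximate standard error, filled where the adjusted p is under 0.05. CCA1, LHY, RVE1, RVE2 and RVE8 lie to the left of 0 and RVE4 and LNK1 to the right in each genotype, while the RVE6 points are open.

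LHY had the widest range of the 9 genes, its highest group mean being 5.42 times its lowest. It stood at 193 and 189 CPM in WT at 22 °C and at 52.3 and 51.8 CPM after 3 h at 28 °C. In mrg1 mrg2 it went from 164 and 164 to 50.8 and 52.6 CPM, and in pif4 from 172 and 197 to 53.0 and 53.8 CPM. In the triple mutant it went from 177 and 176 to 34.5 and 35.9 CPM. Each genotype thus lost most of its LHY transcript, and the triple mutant at 28 °C had the lowest level of the 8 groups, apart from the other 7. The log2 change was −1.88 ± 0.07 in WT (SE, adjusted p = 1.54e-22), −1.67 ± 0.07 in mrg1 mrg2 (3.07e-21), −1.79 ± 0.07 in pif4 (8.42e-22) and −2.32 ± 0.07 in the triple mutant (5.00e-25). These are 0.273, 0.315, 0.289 and 0.20 times the level at 22 °C.

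CCA1, the closest relative of LHY, fell less. Its levels in WT were 87.0 and 86.5 CPM at 22 °C and 60.5 and 59.1 CPM at 28 °C. The mrg1 mrg2 libraries had 73.0 and 72.5 CPM at 22 °C and 64.6 and 60.4 at 28 °C. The pif4 libraries went from 101 and 105 to 60.0 and 57.5 CPM, and those of the triple mutant from 94.9 and 99.9 to 51.9 and 47.9. The range of CCA1 over genotypes was thus wider at 22 °C, where pif4 was highest and mrg1 mrg2 lowest. The log2 change was −0.54 ± 0.07 in WT (adjusted p = 2.76e-07), −0.81 ± 0.07 in pif4 (1.96e-11) and −0.97 ± 0.07 in the triple mutant (1.84e-13). In mrg1 mrg2 it was −0.22 ± 0.07 (0.0218), a call lost without either mrg1 mrg2 library at 22 °C (0.101 and 0.0880), without the second at 28 °C (0.179) and with DESeq2 (0.0684).

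RVE2 had 158 and 148 CPM in WT at 22 °C, well above the 111 and 108 of mrg1 mrg2, the 100.01 and 99.2 of pif4 and the 89.8 and 83.4 of the triple mutant. At 28 °C it had 56.1 and 57.8 CPM in WT, 64.8 and 61.8 in mrg1 mrg2, 49.5 and 44.4 in pif4 and 50.6 and 55.2 in the triple mutant. The order of genotypes was not the same at both temperatures, and all 8 groups ordered by their means stood apart from their neighbours. RVE2 fell by 1.43 ± 0.07 on the log2 scale in WT (adjusted p = 2.92e-18), by 0.79 ± 0.07 in mrg1 mrg2 (3.07e-11), by 1.08 ± 0.07 in pif4 (2.42e-14) and by 0.71 ± 0.07 in the triple mutant (7.26e-10).

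RVE1 stood at 72.4 and 65.9 CPM in WT at 22 °C and at 40.3 and 43.8 CPM at 28 °C. In the 6 mutant libraries at 22 °C it ran from 48.2 to 58.2 CPM, and in the 6 at 28 °C from 31.1 to 41.5. WT at 22 °C was above all other groups, without overlap. The log2 change was −0.72 ± 0.09 in WT (adjusted p = 2.38e-08), −0.38 ± 0.09 in mrg1 mrg2 (0.000872), −0.47 ± 0.09 in pif4 (6.38e-05) and −0.64 ± 0.09 in the triple mutant (4.20e-07). Root markers moved with the groups that the WT change in RVE1 and RVE2 compares: 6 of the 9 tested fell and 0 rose in WT. RVE1 and RVE2 also fell in the mutants, where 1 root marker rose and 0 fell in mrg1 mrg2, 2 rose and 0 fell in pif4, and 0 rose and 0 fell in the triple mutant. Of the 5 shoot and leaf markers, 3 rose and 1 fell in WT, mrg1 mrg2 and pif4, and 3 rose and 2 fell in the triple mutant. The part of these markers in the WT values was not tested.

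The activators RVE8 and RVE4 moved in opposite directions. RVE8 had 44.6 and 42.4 CPM in WT at 22 °C and 21.0 and 22.9 CPM at 28 °C. RVE4 had 91.0 and 87.4 CPM in WT at 22 °C and 123 and 123 CPM at 28 °C. The 6 mutant libraries had 30.8 to 43.6 CPM of RVE8 at 22 °C and 16.9 to 25.0 at 28 °C, and 67.6 to 94.5 CPM of RVE4 at 22 °C and 104 to 138 at 28 °C. Neither gene's groups overlapped between temperatures in any genotype. RVE8 fell by 0.99 ± 0.12 on the log2 scale in WT (adjusted p = 2.04e-08), by 0.59 ± 0.11 in mrg1 mrg2 (0.000111), by 0.97 ± 0.12 in pif4 (3.89e-08) and by 1.04 ± 0.12 in the triple mutant (9.27e-09). RVE4 rose by 0.46 ± 0.07 in WT (2.63e-06), by 0.70 ± 0.07 in mrg1 mrg2 (5.06e-10), by 0.51 ± 0.07 in pif4 (4.62e-07) and by 0.44 ± 0.07 in the triple mutant (6.66e-06).

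RVE6, the third activator, was the member with the lowest counts, at 8.08 to 12.1 CPM at 22 °C (median 9.82, 8 libraries) and 8.91 to 14.7 CPM at 28 °C (median 11.8). The temperatures overlapped, and 6 of the 7 pairs of neighbouring group means overlapped too. Its log2 change was 0.31 ± 0.18 in WT (adjusted p = 0.214), 0.05 ± 0.19 in mrg1 mrg2 (0.873), 0.46 ± 0.18 in pif4 (0.0623) and −0.06 ± 0.18 in the triple mutant (0.846). It had 73 to 135 reads per library. With the ribosomal RNA gene AT3G41768 and the organelle genes left out, the value in pif4 passed (0.0473).

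LNK1 more than doubled in WT, from 36.8 and 31.7 CPM at 22 °C to 77.9 and 81.6 CPM at 28 °C, which is 2.33 times in the fitted model. In mrg1 mrg2 it went from 35.5 and 32.0 to 62.0 and 65.7 CPM, in pif4 from 47.2 and 46.4 to 80.2 and 82.2, and in the triple mutant from 42.5 and 44.0 to 71.4 and 73.8. The lowest library at 28 °C was above the highest at 22 °C. The log2 change was 1.22 ± 0.08 in WT (adjusted p = 1.12e-14), 0.92 ± 0.08 in mrg1 mrg2 (2.50e-11), 0.79 ± 0.08 in pif4 (5.95e-10) and 0.75 ± 0.08 in the triple mutant (2.18e-09). LNK1 overlaps the gene AT5G64160 on the other strand, which had 81 to 171 reads where LNK1 had 289 to 845. The strand setting of the counting is not given in the sources used here, so reads of the pair could not be told apart. The same limit holds for LNK2 and RVE1. LNK2 overlaps AT3G54490 (0 to 5 reads) and AT3G08405 on the other strand, and RVE1 overlaps AT5G17305. The deposited counts do not include AT3G08405 or AT5G17305.

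LNK2, the other LNK partner, rose less and not in each genotype. It stood at 173 and 174 CPM in WT at 22 °C and at 235 and 257 at 28 °C, and at 169 and 157 against 223 and 239 in mrg1 mrg2. In pif4 it was already at 216 and 238 CPM at 22 °C and stood at 267 and 261 at 28 °C, and in the triple mutant it was at 206 and 224 and then at 223 and 208. The triple mutant's temperatures overlapped, and those of the other genotypes did not. The log2 change was 0.50 ± 0.06 in WT (adjusted p = 4.54e-08), 0.50 ± 0.06 in mrg1 mrg2 (5.27e-08) and 0.22 ± 0.06 in pif4 (0.00757). It was 0.00 ± 0.06 in the triple mutant (0.990). The call in pif4 was lost without its first library at 22 °C (0.197) or at 28 °C (0.0767).

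The ratio of reads between related genes within a library does not depend on the scaling between libraries. For 4 pairs, chosen after their values were seen, it is given as a description with no test. There were 1.71 to 2.27 LHY reads per CCA1 read in the 8 libraries at 22 °C (median 2.02) and 0.666 to 0.935 at 28 °C (median 0.867). RVE8 had 0.387 to 0.607 reads per RVE4 read at 22 °C (median 0.481) and 0.149 to 0.233 at 28 °C (median 0.174). Both ratios were thus lower at 28 °C in 4 of 4 genotypes, with no overlap. The ratio of RVE2 to RVE1 was 1.58 to 2.25 at 22 °C and 1.07 to 1.69 at 28 °C, and that of LNK1 to LNK2 was 0.182 to 0.218 and 0.275 to 0.355. The RVE2 to RVE1 ratio was lower and the LNK1 to LNK2 ratio higher at 28 °C in 4 of 4 genotypes, although the first overlapped between temperatures. In the triple mutant the RVE2 to RVE1 ratio hardly differed, at 1.86 and 1.58 at 22 °C and 1.63 and 1.64 at 28 °C. Its mean log2 difference was −0.07 there, −0.71 in WT, −0.41 in mrg1 mrg2 and −0.62 in pif4. The mean log2 difference over genotypes was −1.28 for LHY to CCA1, −1.42 for RVE8 to RVE4, 0.62 for LNK1 to LNK2 and −0.45 for RVE2 to RVE1.

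**Figure D4:**
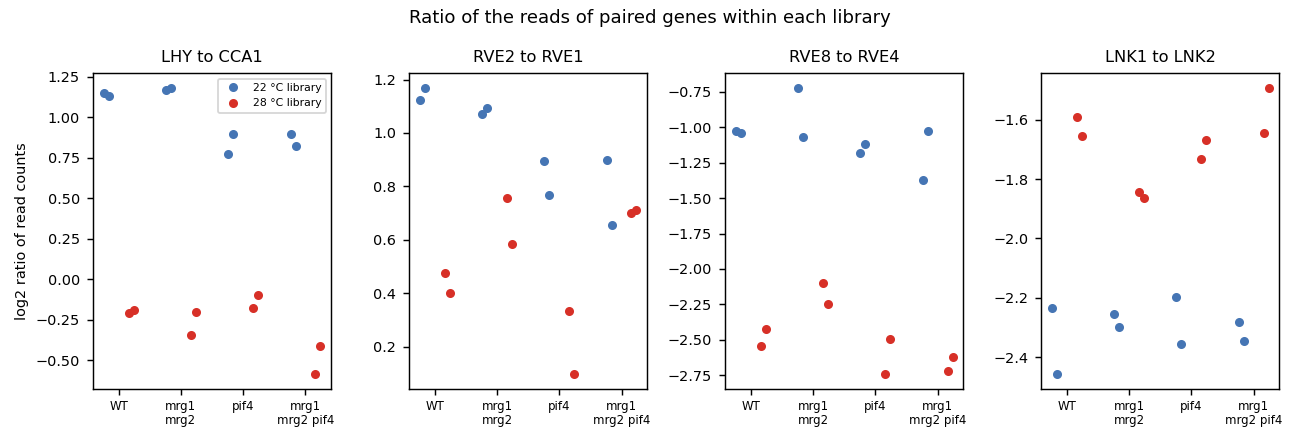
Log2 ratio of read counts for 4 pairs of genes within each library, by genotype and temperature. Points are libraries. The LHY to CCA1 and RVE8 to RVE4 ratios lie lower at 28 °C in each genotype and the LNK1 to LNK2 ratio lies higher.

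Per kilobase of annotated exons, RVE2 had the highest level of the 9 genes in WT at 22 °C, at 156 ± 6.77 CPM per kb (SD, n = 2). LNK2 followed at 59.4 ± 0.254 and LHY at 55.8 ± 0.777, then RVE4 at 42.3, RVE1 at 34.3, CCA1 at 31.9, RVE8 at 18.6, LNK1 at 12.8 and RVE6 at 6.59. At 28 °C LNK2 led at 84.0 ± 5.37 CPM per kb, followed by RVE4 at 58.3 ± 0.0144 and RVE2 at 58.1 ± 1.28, whose ranges overlapped. LNK1 then stood at 29.9, CCA1 at 22.0, RVE1 at 20.9, LHY at 15.2, RVE8 at 9.37 and RVE6 at 8.15. LHY had moved from the third to the seventh place. Per coding length, LHY took the second place and LNK2 the fourth at 22 °C, and RVE4 the first at 28 °C.

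At 22 °C the mutants differed from WT in the morning genes, and the members that passed were not the same in each. In mrg1 mrg2 the 5 genes CCA1, LHY, RVE1, RVE2 and RVE4 were lower and 0 were higher, where 24.5% of all genes differed and 12.2% were lower. In pif4, CCA1, LNK1 and LNK2 were higher and RVE1 and RVE2 lower, 5 of 9 against 10.8% of all genes. In the triple mutant LNK1 and LNK2 were higher and RVE1, RVE2 and RVE8 lower, again 5 of 9, against 15.4% of all genes. The 3 comparisons share the WT libraries.

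RVE2 and RVE1 were lower than in WT in each mutant. The log2 difference of RVE2 was −0.48 ± 0.07 in mrg1 mrg2 (adjusted p = 1.04e-06), −0.62 ± 0.07 in pif4 (2.17e-08) and −0.82 ± 0.07 in the triple mutant (2.37e-11). That of RVE1 was −0.42 ± 0.08 (0.000197), −0.30 ± 0.08 (0.0131) and −0.45 ± 0.08 (0.000142). The RVE1 call in pif4 was lost without the first WT library at 22 °C (0.197), without the first pif4 library (0.173) and with DESeq2 (0.0503). Beside these values, root markers were lower than in WT at 22 °C in 7 of 9 tested genes in mrg1 mrg2, 5 in pif4 and 5 in the triple mutant, with 0 higher in each. Shoot and leaf markers were higher in 3 of 5 in mrg1 mrg2, 4 in pif4 and 3 in the triple mutant, where 1 was lower. The part of these markers in the differences from WT at 22 °C was not tested.

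CCA1 differed from WT in opposite directions in mrg1 mrg2 and in pif4. The log2 difference of CCA1 from WT at 22 °C was −0.25 ± 0.07 in mrg1 mrg2 (adjusted p = 0.00685), 0.25 ± 0.07 in pif4 (0.0145) and 0.17 ± 0.07 in the triple mutant (0.111). The value in pif4 lost its call without either WT library (0.0826 and 0.102) or the second pif4 library (0.130). LHY differed by −0.22 ± 0.06 in mrg1 mrg2 (0.00965), −0.05 ± 0.06 in pif4 (0.717) and −0.11 ± 0.06 in the triple mutant (0.250). Its call in mrg1 mrg2 was lost without the first WT library (0.0727) or either mrg1 mrg2 library (0.0638 and 0.0537). RVE4 was lower in mrg1 mrg2 (−0.39 ± 0.07, adjusted p = 7.51e-05) and RVE8 in the triple mutant (−0.31 ± 0.11, 0.0479). RVE4 in the triple mutant (−0.16 ± 0.07, 0.129) and RVE8 in mrg1 mrg2 (−0.23 ± 0.11, 0.122) did not pass, though their libraries lay below those of WT. In pif4 RVE4 differed by 0.03 ± 0.07 (0.893) and RVE8 by −0.09 ± 0.11 (0.721). Between the triple mutant and mrg1 mrg2, neither RVE8 (−0.08 ± 0.11, 0.736) nor LHY (0.10 ± 0.06, 0.354) passed. The RVE8 call was lost with DESeq2 (0.17), without either WT library at 22 °C (0.222 and 0.108) and without the first triple mutant library at 22 °C (0.538), and its adjusted p was 0.0507 to 0.0513 in 4 further fits that left out 1 library of pif4 at 22 °C or mrg1 mrg2 at 28 °C.

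The LNK genes were higher in both genotypes that carry pif4. LNK1 differed from WT at 22 °C by 0.45 ± 0.09 in pif4 (adjusted p = 0.000210) and 0.34 ± 0.09 in the triple mutant (0.00449), and LNK2 by 0.39 ± 0.06 (1.93e-05) and 0.31 ± 0.06 (0.000389). In mrg1 mrg2 the values were −0.02 ± 0.09 for LNK1 (0.908) and −0.09 ± 0.06 for LNK2 (0.332). The LNK1 call in the triple mutant was lost without the second WT library (0.169), in which LNK1 was lowest. Set against mrg1 mrg2 in place of WT, the triple mutant at 22 °C had 4 members higher and 1 lower, where 9.82% of all genes differed. CCA1 was higher by 0.42 ± 0.07 (4.74e-05), LNK2 by 0.40 ± 0.06 (1.54e-05), LNK1 by 0.36 ± 0.09 (0.00395) and RVE4 by 0.23 ± 0.07 (0.040), and RVE2 was lower (−0.34 ± 0.07, 0.00108).

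Some of these calls rested on single libraries. The RVE4 call was lost without any 1 of the 4 libraries compared (0.144 to 0.175), and with DESeq2 (0.0831) or no filter on low counts (0.0561). The LNK1 call was lost without the second mrg1 mrg2 library (0.104) or the second triple mutant library (0.0523), and the RVE2 call without the second triple mutant library (0.0547). Against pif4 at 22 °C, 0 members of the triple mutant passed edgeR's test, where 6.39% of all genes did. The count was 3 at an unadjusted p under 0.05 and 0 with DESeq2. The log2 differences ran from −0.23 to 0.18, with 95% bounds from −0.45 to 0.54 over the 9 genes.

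Against WT at 28 °C, 0 members of pif4 passed edgeR's test, where 1.59% of all genes did, with 1 at an unadjusted p under 0.05 (RVE2, −0.27 ± 0.08, adjusted p = 0.0610) and 0 with DESeq2. The log2 differences ran from −0.27 to 0.10, with 95% bounds from −0.43 to 0.28. In these pif4 libraries the summed seed markers stood at 70.7 and 72.4 CPM, and 3 of the 4 seed markers tested were higher than in WT. Their part in the result was not tested. In mrg1 mrg2, LNK1 alone passed (−0.32 ± 0.08, adjusted p = 0.00425), where 14.1% of all genes did, and its call was lost without the second WT library (0.0629) or the first mrg1 mrg2 library (0.0681). The log2 differences of mrg1 mrg2 ran from −0.48 to 0.16, with 95% bounds from −0.84 to 0.41, and 4 members had an unadjusted p under 0.05. The lowest was RVE6 (−0.48 ± 0.18, adjusted p = 0.0677), which passed with a replicate block (0.0413). Both counts of members called are near the share over all genes, and a value that did not pass is not shown to equal WT.

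In the triple mutant at 28 °C, LHY, CCA1 and RVE1 were lower than in each of the other genotypes. Against WT, 4 of 9 members were lower and 0 higher, where 11.8% of all genes differed and 6.55% were lower. The log2 difference of LHY was −0.56 ± 0.07 (adjusted p = 4.89e-07), that of RVE1 −0.37 ± 0.09 (0.00455), of CCA1 −0.26 ± 0.07 (0.0149) and of LNK2 −0.19 ± 0.06 (0.0375). Against mrg1 mrg2, 5 were lower (9.95% of all genes differed and 5.28% were lower): LHY (−0.55 ± 0.07, 5.25e-07), RVE8 (−0.53 ± 0.12, 0.00299), CCA1 (−0.33 ± 0.07, 0.00195), RVE1 (−0.29 ± 0.09, 0.0316) and RVE2 (−0.26 ± 0.07, 0.0195). Against pif4, 5 were lower (9.42% and 6.03%): LHY (−0.60 ± 0.07, 1.41e-07), RVE1 (−0.31 ± 0.09, 0.0212), LNK2 (−0.29 ± 0.06, 0.00111), RVE4 (−0.26 ± 0.07, 0.0132) and CCA1 (−0.24 ± 0.07, 0.0345). The 3 comparisons share the triple mutant libraries. Tissue markers differed in the same comparisons. Of 5 shoot and leaf markers, 3 were lower and 1 higher against WT, 3 lower and 0 higher against mrg1 mrg2, and 5 lower against pif4. Of 9 root markers tested, 1 was higher against WT, 4 against mrg1 mrg2 and 0 against pif4, with 0 lower in each. Of 4 seed markers tested, 1 was lower against WT, 1 higher against mrg1 mrg2 and 3 lower against pif4. Their part in the lower levels was not tested. LHY passed in each of the 3 under every alternative and with any 1 library left out, and RVE8 passed against mrg1 mrg2 in the same way. With DESeq2 the counts against mrg1 mrg2 and against pif4 were 3 and 3 in place of 5 and 5. The calls lost were RVE1 (0.118) and RVE2 (0.0563) against mrg1 mrg2, and CCA1 (0.120) and RVE1 (0.104) against pif4. With no filter on low counts RVE1 against mrg1 mrg2 (0.0511) and CCA1 against pif4 (0.0648) were not called. With the compared groups alone RVE1 (0.0595) and RVE2 (0.0502) against mrg1 mrg2 and CCA1 against pif4 (0.0844) were not called.

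The other calls at 28 °C depended on single libraries. Against WT, CCA1 was not called without the first WT library (0.103) or the second triple mutant library (0.202), RVE1 without the second WT library (0.0763) or the first triple mutant library (0.0767), and LNK2 without the second WT library (0.343) or the second triple mutant library (0.317). Against mrg1 mrg2, CCA1 was lost without the first mrg1 mrg2 library (0.0552) or the second triple mutant library (0.0843), RVE2 without the first library of either group (0.161 and 0.231), and RVE1 without any 1 of the 4 (0.0535 to 0.238). Against pif4, CCA1 was lost without any 1 of the 4 libraries (0.0506 to 0.322), RVE1 without either pif4 library or the first triple mutant library (0.0518 to 0.20), RVE4 without the first pif4 library (0.313) or the second triple mutant library (0.210), and LNK2 without the second triple mutant library (0.0533).

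**Figure D5:**
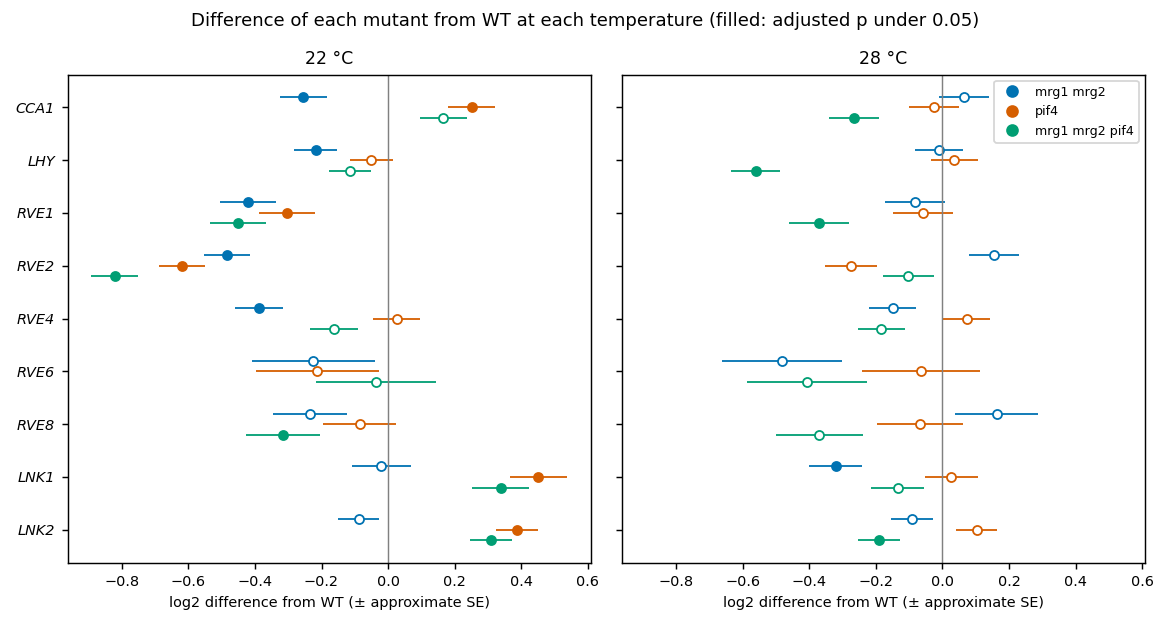
Log2 difference of each mutant from WT for the 9 genes at 22 °C (left) and 28 °C (right), with approximate standard errors and filled points where the adjusted p is under 0.05. At 28 °C the LHY point of mrg1 mrg2 pif4 lies at −0.56, while those of mrg1 mrg2 and pif4 lie at −0.01 and 0.04.

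LHY at 28 °C was lower in the triple mutant than its 2 constituent mutants account for on an additive log2 scale. Its difference from WT was −0.01 ± 0.07 in mrg1 mrg2 (adjusted p = 0.947) and 0.04 ± 0.07 in pif4 (0.918), against −0.56 in the triple mutant. The departure from additive genotype effects, the triple mutant's difference from WT minus those of mrg1 mrg2 and pif4, was −0.59 ± 0.10 (adjusted p = 0.000200). It was the 1 member of 9 to pass, where 3.72% of all genes did, and it ran from −0.62 to −0.56 over every alternative and every library left out, with adjusted p from 0.000110 to 0.00485. For CCA1 the departure was −0.30 ± 0.10 (0.106), for RVE8 −0.47 ± 0.18 (0.163) and for LNK2 −0.20 ± 0.09 (0.238). At 22 °C, 0 members passed edgeR's test, where 13.2% of all genes did, with 2 at an unadjusted p under 0.05 and 0 with DESeq2. LHY then departed by 0.15 ± 0.09 (0.302) and RVE2 by 0.28 ± 0.10 (0.0551), the latter passing under several alternatives (0.0326 to 0.0484). The additive comparison was chosen after the values were seen. In the same comparison at 28 °C, 5 of 5 shoot and leaf markers were lower. The sum of these markers was 24104 and 23840 CPM in the triple mutant and 26523 to 32543 CPM in the other 6 libraries at 28 °C. Their part in the result was not tested.

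The responses to warmth of RVE2, LHY, CCA1, LNK1 and LNK2 also differed between a mutant and WT. The fall of RVE2 was smaller than in WT by 0.64 ± 0.10 in mrg1 mrg2 (adjusted p = 7.86e-05) and by 0.72 ± 0.10 in the triple mutant (7.17e-06). In the triple mutant LHY and CCA1 fell further than in WT, with differences between the responses of −0.45 ± 0.10 (0.00215) and −0.43 ± 0.10 (0.00601), while LNK1 and LNK2 responded less, with −0.47 ± 0.12 (0.00810) and −0.50 ± 0.09 (0.000168). In pif4 LNK1 responded less (−0.43 ± 0.12, 0.0265), while the values of RVE2 (0.34 ± 0.10, 0.0518) and LNK2 (−0.28 ± 0.09, 0.0592) did not pass. The counts were 1 of 9 in mrg1 mrg2 (4.81% of all genes), 1 in pif4 (4.1%) and 5 in the triple mutant (5.83%). The 3 differences share the WT libraries at both temperatures, so an unusual WT library enters each. In these tests shoot and leaf markers were lower in 4 of 5 in mrg1 mrg2, 3 in pif4 and 5 in the triple mutant, with 0 higher, and root markers were higher in 3, 5 and 3 of 9, with 0 lower. Their part in these differences was not tested. The LNK1 value in the triple mutant was not called without the second WT library at 22 °C (0.114), nor that of CCA1 without the second triple mutant library at 28 °C (0.0667). The LNK1 value in pif4 was lost with DESeq2 (0.0711) and without any 1 of 5 libraries (0.0631 to 0.210).

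The relatives of the 9 genes were counted from a list of 6 related RVE and LNK genes, of which 5 were tested. RVE7 (AT1G18330), a further member of the family, went the opposite way from RVE1 and RVE2. It had 13.6 and 12.98 CPM in WT at 22 °C and 42.1 and 40.0 CPM at 28 °C. The groups did not overlap, and the log2 change was 1.63 ± 0.12 (adjusted p = 5.24e-14). RVE7 also rose in mrg1 mrg2 by 1.91 ± 0.13 (6.17e-15), in pif4 by 1.26 ± 0.11 (2.07e-11) and in the triple mutant by 1.31 ± 0.11 (3.37e-12). LNK3 rose in WT by 0.42 (0.0166) and LNK4 by 0.46 (0.00208). The list counts were 3 higher and 0 lower in WT, 3 and 0 in mrg1 mrg2, 2 and 0 in pif4 and 1 and 1 in the triple mutant, where RVE3 fell by 0.81 (0.0475). Over all genes tested, 26.9%, 26.9%, 25.6% and 27.2% passed in these genotypes, in the same order.

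Of the 10 PRR and evening genes, 6 rose and 2 fell in WT, 7 and 2 in mrg1 mrg2, 5 and 1 in pif4 and 6 and 1 in the triple mutant. Over all genes tested, 26.9%, 26.9%, 25.6% and 27.2% passed in these genotypes, in the same order. LUX (AT3G46640), a DNA-binding subunit of the evening complex, rose in WT from 26.2 and 24.8 to 71.5 and 68.2 CPM, by 1.45 ± 0.09 (adjusted p = 1.83e-15). PRR7, a repressor of CCA1 and LHY, rose by 0.98 ± 0.07 (7.07e-14) and GI, a large clock and flowering protein, by 1.04 ± 0.09 (2.73e-11). PRR5, a repressor of the same family, fell by 0.88 ± 0.14 (3.12e-06). At 28 °C PRR7 was higher in the triple mutant than in WT by 0.38 ± 0.07 (0.000129), PRR5 by 0.50 ± 0.14 (0.0120) and PRR3 by 0.43 ± 0.13 (0.0220), 3 higher and 0 lower of the 10, beside the lower LHY and CCA1 in the same comparison. At 22 °C too 3 of the 10 were higher and 0 lower, and PRR7 had 80.2 and 80.1 CPM against 50.8 and 54.6 in WT. Of all genes tested, 11.8% differed between the triple mutant and WT at 28 °C and 15.4% at 22 °C. At 22 °C LHY (−0.11, adjusted p = 0.250) and CCA1 (0.17, 0.111) did not pass. A link between the PRR genes and LHY or CCA1 was not tested. In pif4 at 28 °C PRR7 alone differed from WT, by 0.31 ± 0.07 (0.00643), and LHY by 0.04 (0.918). Of all genes tested, 1.59% differed in that comparison. Of 7 other clock components, 2 rose in WT (CHE by 0.33 and LWD1 by 0.62) and 0 fell. This is near the share over all genes tested, of which 26.9% passed in WT. Of 12 outputs 8 were tested, and in WT 1 rose (YUC8, an auxin biosynthesis gene, by 1.25 ± 0.31, 0.00199) and 2 fell (GRP7 by 0.33 and GRP8 by 0.26), beside the same 26.9%. YUC8 is an output of RVE1, whose transcript fell in the same libraries, and a link between the changes was not tested. At 28 °C YUC8 had 7.17 and 6.06 CPM in WT and 4.47 and 3.52 in mrg1 mrg2. It had 4.01 and 3.45 CPM in pif4 and 1.60 and 3.06 in the triple mutant.

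Over the 8 group means of log2 CPM most of the members formed 2 sets. Pearson's r was 0.976 between LHY and RVE8, 0.930 between LHY and CCA1 and 0.924 between RVE1 and RVE2, and also 0.924 between RVE4 and LNK1. RVE2 and LNK1 ran opposite (−0.953). RVE6 belonged less clearly to either set, its r with the others running from −0.486 (RVE2) to 0.687 (RVE4). LNK2 had 0.875 with LNK1 and 0.832 with RVE4, but its r with the falling genes ran from −0.813 (RVE2) to −0.332 (CCA1). Temperature is shared by all these points, so the values are descriptions. Among other genes with a mean of at least 5 CPM, those most like a member over the 8 groups were AT1G06690, AT2G35390 and FAD8, a chloroplast fatty acid desaturase gene, for LHY (r = 0.9954, 0.9954 and 0.9933). For RVE2 they were AT5G54130, GSTU24 and AT3G17120 (0.9938, 0.9936 and 0.991), for RVE4 ZIGA4, AT1G73200 and AT2G41710 (0.9965, 0.9886 and 0.9873) and for LNK1 AT1G43245, AT5G42220 and DABB1 (0.9925, 0.9919 and 0.9916). RVE8 was most like PI4K GAMMA 4 (0.9934), RVE1 most like VIK (0.9934), RVE6 most like CRK10 (0.9808), LNK2 most like UBC17 (0.9785) and CCA1 most like PP2A-3 (0.9744). Pearson's r does not measure the size of a change. The SD of log2 CPM over the groups was 0.105 for PI4K GAMMA 4 against 0.503 for RVE8. It was 0.120 for VIK against 0.341 for RVE1, and 0.117 for PP2A-3 against 0.379 for CCA1. Of the genes named here, AT5G54130, GSTU24 and UBC17 varied more than their member and the others less.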

How the data were processed

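The data are raw read counts per gene for 33602 genes in 16 libraries, deposited by the authors with no normalization. Per the submitters' processing notes, cutadapt, HISAT2, SAMtools and featureCounts were used with the build TAIR10, and per the labels' protocols the library kit keeps strand. The counting's strand setting, like versions and options, is not given in the sources used here, so overlapping genes on opposite strands may share reads.

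Tests used edgeR 4.0.16 (R 4.3.3). The function filterByExpr, given the 8 groups, min.count 10 and min.total.count 15, left 20075 genes. After TMM normalization all 16 libraries entered 1 quasi-likelihood fit with 8 residual degrees of freedom, a median prior of 29.1 and a common biological coefficient of variation of 5.74%. Of 19 comparisons, 17 follow the design and 2, the departures from additive effects, were added. Two-sided p-values were adjusted over all 20075 genes (Benjamini-Hochberg, threshold 0.05). Standard errors are approximate, obtained as log2 change over the root of F. The procedure was tested on simulated data. CPM are TMM-scaled, and correlations use log2 CPM with a prior count of 2. A floor of 3 counts is 0.264 to 0.417 CPM and covers counting error only.

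Alternatives were RLE normalization, no filter on low counts, omission of the ribosomal RNA gene AT3G41768 (4.88% to 9.18% of counts) and organelle genes (2.29% to 4.31%), a replicate block, only the libraries of the groups compared, DESeq2 1.42.0 and leaving out each library in turn. The 9 members, the gene lists, the pairs and the motifs were chosen with earlier results of these data known. Named from the lists were at most 4 genes each by smallest p in the WT warm response, plus genes that small counts call for, and the 3 genes most like each member, of which the text gives 1 to 3. Promoters were read from the RefSeq TAIR10.1 genome at the annotated starts of the 9 gene IDs.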

Additional observations from a re-analysis of the deposited data

Results flagged for a closer look

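The members whose warm response in a mutant differed from that in WT by edgeR's interaction test, adjusted over 20075 genes, were these. RVE2 responded by 0.64 log2 units more positively than in WT in mrg1 mrg2 (adjusted p = 7.86e-05) and by 0.72 in mrg1 mrg2 pif4 (7.17e-06). In mrg1 mrg2 pif4 the difference from the WT response was −0.45 for LHY (0.00215), −0.43 for CCA1 (0.00601), −0.47 for LNK1 (0.00810) and −0.50 for LNK2 (0.000168). In pif4 it was −0.43 for LNK1 (0.0265). The 7 values use the same 4 WT libraries, in which the root markers summed to 177 and 179 CPM at 22 °C and to 103 and 102 at 28 °C. In the same tests shoot and leaf markers were lower in 4 of 5 in mrg1 mrg2, 3 in pif4 and 5 in the triple mutant. The part of either list was not tested. The effect of pif4 on LHY at 28 °C also differed between the mrg1 mrg2 and the WT background, with a departure from additivity of −0.59 (adjusted p = 0.000200).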

How the results depend on the processing

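No called value of the 9 genes changed sign under any alternative or without any library. Of 171 member tests per setting, DESeq2 ended 9 calls, no filter on low counts 3 and use of the compared groups alone 3, while 0 were lost under RLE normalization, without the ribosomal RNA and organelle genes or with the replicate block. The members called in the pif4 interaction were 1 in the reported fit, 3 without the ribosomal RNA and organelle genes, 3 with the replicate block, 2 with the compared groups alone and 0 with DESeq2. For additivity at 22 °C the 0 became 1 (RVE2) under RLE, without the ribosomal RNA and organelle genes, with the block and with the compared groups alone. The triple mutant against pif4 at 22 °C went from 0 to 1 without the ribosomal RNA and organelle genes. The triple mutant against mrg1 mrg2 at 28 °C went from 5 to 3 with the compared groups alone and to 3 with DESeq2, and against pif4 at 28 °C from 5 to 3 with DESeq2. With the replicate block, mrg1 mrg2 against WT at 28 °C had 2 members called in place of 1.

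Over 28 pairs of groups the correlation of same-numbered deviations ran from −0.0098 to 0.0685 (median 0.0269), with 0 above 0.1. The share of the ribosomal RNA gene was nevertheless higher in replicate 2 than in replicate 1 of each group. It was 7.08% and 7.22% in pif4 at 22 °C, and 4.88% and 8.50% in the triple mutant at 28 °C. Whether same-numbered libraries shared a step of handling was not tested. The labels state no pairing, and the block ended no call of a member.

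With DESeq2 fewer of all genes passed: 1367 in place of 2178 for pif4 against WT at 22 °C, 1923 in place of 3093 for the triple mutant against WT at 22 °C, 1722 in place of 2830 for mrg1 mrg2 against WT at 28 °C and 1394 in place of 2377 for the triple mutant against WT at 28 °C. For the triple mutant against mrg1 mrg2 at 22 °C it was 1240 in place of 1972 and at 28 °C 1241 in place of 1998, and against pif4 673 in place of 1283 and 1131 in place of 1891. The interactions had 615 in place of 965 (mrg1 mrg2) and 520 in place of 824 (pif4), and additivity at 22 °C 1643 in place of 2644. The cause was not tested.

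Leaving out 1 library, the members called ranged from 3 to 5 for pif4 and for the triple mutant against WT at 22 °C, 0 to 1 for mrg1 mrg2 and 2 to 5 for the triple mutant against WT at 28 °C, 2 to 5 for the triple mutant against mrg1 mrg2 at 22 °C and at 28 °C and against pif4 at 28 °C, and 0 to 3 for the pif4 interaction. Over all genes the ranges were 1235 to 2276 for pif4 and 1957 to 3157 for the triple mutant against WT at 22 °C. At 28 °C they were 1569 to 2898 for mrg1 mrg2, 150 to 354 for pif4 and 1401 to 2453 for the triple mutant against WT. The triple mutant had 1070 to 2019 against mrg1 mrg2 and 523 to 1351 against pif4 at 22 °C, and 1060 to 2072 and 1092 to 1941 at 28 °C. The interactions had 601 to 983 (mrg1 mrg2) and 456 to 873 (pif4), and additivity at 28 °C 479 to 750. The log2 differences of the read ratios moved by little: −1.30 to −1.26 for LHY to CCA1, −0.48 to −0.42 for RVE2 to RVE1, −1.46 to −1.37 for RVE8 to RVE4 and 0.59 to 0.64 for LNK1 to LNK2. With 2 libraries per group, a group left with 1 library is assumed to vary like the others. The chi-square per gene between the 2 libraries of a group was 1.79 to 4.15 in the groups at 22 °C. It was 7.12 to 8.90 in those at 28 °C. These values include the ribosomal RNA gene, whose share differed between replicates, and its part in them was not tested. RVE6 had the lowest counts of the 9 genes, 73 to 135 reads per library, and how far depth limited its calls was not tested.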
